A study of Homo sapiens with 40 samples.

Results

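Bidirectional promoters are stretches of DNA between 2 protein-coding genes that point away from each other and share one nucleosome-free region. The members described here were the H3K27ac peaks on such promoters with GC-rich DNA. A peak was a member when it was narrower than 10000 bp, lay outside both lists of active enhancers, had at least 50% GC in its central 1 kb, and overlapped the interval between a minus-strand start site and a plus-strand start site at most 1 kb further on. Start sites were those of protein-coding transcripts in GENCODE 44 on the hg38 genome. The rule used no comparison of the cell states and kept 1114 of 51489 H3K27ac peaks, or 2.16%. Of 1282 peaks on a divergent interval, 34 were too wide, 9 of the others lay in an enhancer list and 125 of the rest had too little GC. The highest GC left out was 49.9% and the lowest kept was 50%. The median log2 fold change was 0.14 for the 17 divergent peaks of 49 to 50% GC and 0.11 for the 25 members of 50 to 51% GC. The widest member measured 9828 bp.

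H3K27ac is acetylation of lysine 27 of histone H3, deposited mainly by p300 and CBP around active start sites and enhancers. At a divergent pair, the acetylated nucleosomes lie on both sides of one shared open region, so that a single peak usually reports on both genes together. Many housekeeping, DNA repair, cell-cycle and mitochondrial genes in the human genome are arranged this way, and several histone genes are too.

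The cells were EndoC-βH3, a human beta-cell line of fetal pancreas origin that was immortalized with hTERT and SV40 large T and carries a CreER recombinase. Non-senescent cells were untreated controls, and senescent cells had received 4-hydroxytamoxifen for 3 weeks, which excises hTERT and large T; both states carry the genotype label WT and come from a single line. Each state had 3 H3K27ac, 3 CTCF and 2 Rb ChIP-seq libraries, each with an input. The labels do not say whether libraries came from separate cultures, so the errors and p-values below measure the spread between libraries, which may be technical. In the senescent arm the loss of both immortalizing genes and the senescent state cannot be told apart. All values are from tables of DESeq2 results that hold 1 row per peak and no values per library. A mean ± SD or a value for each library therefore cannot be given, and the standard error (SE) of the log2 fold change carries the spread between 3 and 3 libraries. All 9 beta-cell markers examined, among them INS and PDX1, had an H3K27ac peak at a start site, with mean normalized counts of 2453 to 16247, and so did 2 of 5 markers of other islet cells, 1 of 4 acinar, 1 of 3 ductal, 0 of 3 mesenchymal and 1 of 3 immune markers. The highest of these was CD68 at 3544, above INS at 3078, while GCG, PTF1A, SOX9, COL1A1 and PTPRC had no peak. What the peak at CD68 reports on was not tested.

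The sequences between the start sites of some members are given as examples, picked by size of change or by count and not as typical members. They were taken from the promoters that the naming rule selects, where the principal (Ensembl canonical) start sites lie 40 to 300 bp apart and at least 40 bp between them are free of annotated exons. Shown are the 5 lost and the 3 gained ones with the largest changes under these limits, and the uncalled pair with the highest mean count. OIP5/NUSAP1 and ZNF571/ZNF540 lack such an exon-free stretch. Each sequence was read from hg38 on the plus strand as the longest exon-free part of the interval. Capitals mark the letters of an E2F site (TTTCCCGC, TTTCGCGC, TTTGCCGC or TTTGGCGC), a cell-cycle homology region (CHR), a CCAAT box spelled as its name, an ETS site (CCGGAAGT), an NRF1 site (GCATGCGC) or a cAMP response element or CRE (TGACGTCA) on either strand. A CHR was read as the letters TTTGAA. The 5 lost pairs come first.
PDZD11/KIF4A, chrX:70289946-70290103, plus strand: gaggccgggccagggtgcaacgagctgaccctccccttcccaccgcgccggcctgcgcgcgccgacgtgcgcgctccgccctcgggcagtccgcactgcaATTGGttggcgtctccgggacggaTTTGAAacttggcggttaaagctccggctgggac
H2BC11/H2AC11, chr6:27132796-27133042, plus strand: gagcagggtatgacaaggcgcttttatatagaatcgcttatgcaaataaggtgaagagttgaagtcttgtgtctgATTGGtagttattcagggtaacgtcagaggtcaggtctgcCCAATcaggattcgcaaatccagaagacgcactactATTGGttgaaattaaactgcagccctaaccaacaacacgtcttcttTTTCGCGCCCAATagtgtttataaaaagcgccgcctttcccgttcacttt
H2AC17/H2BC17, chr6:27893186-27893424, plus strand: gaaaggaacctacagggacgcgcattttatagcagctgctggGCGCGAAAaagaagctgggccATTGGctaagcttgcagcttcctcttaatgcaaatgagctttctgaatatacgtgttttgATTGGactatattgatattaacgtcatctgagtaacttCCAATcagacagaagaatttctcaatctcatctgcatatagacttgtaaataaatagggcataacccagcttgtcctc
POLE/PXMP2, chr12:132687377-132687586, plus strand: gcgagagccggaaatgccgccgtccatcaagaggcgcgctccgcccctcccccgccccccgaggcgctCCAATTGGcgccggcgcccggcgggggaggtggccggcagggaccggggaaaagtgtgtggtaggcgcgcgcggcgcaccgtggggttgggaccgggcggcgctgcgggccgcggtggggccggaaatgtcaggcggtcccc
ZAR1L/BRCA2, chr13:32315364-32315504, plus strand: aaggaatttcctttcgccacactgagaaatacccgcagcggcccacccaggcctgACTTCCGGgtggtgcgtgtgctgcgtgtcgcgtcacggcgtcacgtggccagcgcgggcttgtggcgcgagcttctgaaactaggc
The 3 gained pairs and the unchanged histone pair follow.
TMEM53/ARMH1, chr1:44674482-44674691, plus strand: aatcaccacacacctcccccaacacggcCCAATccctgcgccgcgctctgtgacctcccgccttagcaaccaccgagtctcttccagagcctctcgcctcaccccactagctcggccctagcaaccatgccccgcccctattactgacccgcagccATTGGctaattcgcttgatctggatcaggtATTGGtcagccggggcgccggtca
ZNF597/NAA60, chr16:3443505-3443648, plus strand: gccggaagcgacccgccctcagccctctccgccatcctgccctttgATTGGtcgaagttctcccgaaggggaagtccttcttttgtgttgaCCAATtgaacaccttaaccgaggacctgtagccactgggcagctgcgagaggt
CCDC87/CCS, chr11:66593064-66593152, plus strand: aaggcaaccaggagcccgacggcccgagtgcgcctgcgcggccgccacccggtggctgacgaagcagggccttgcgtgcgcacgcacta
H2BC21/H2AC20, chr1:149886683-149886917, plus strand: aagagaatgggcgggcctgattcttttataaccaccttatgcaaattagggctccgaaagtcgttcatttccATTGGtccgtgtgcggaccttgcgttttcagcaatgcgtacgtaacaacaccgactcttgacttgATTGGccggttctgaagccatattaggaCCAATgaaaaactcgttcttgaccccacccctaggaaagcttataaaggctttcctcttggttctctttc
The PDZD11/KIF4A interval held a CHR beside a CCAAT box, both of which are elements of late cell-cycle promoters, and no E2F letters. Both lost histone intervals held an E2F site and 3 or 4 CCAAT boxes. The unchanged histone interval H2BC21/H2AC20 held 3 CCAAT boxes and none of the E2F letters. The ZAR1L/BRCA2 interval held an ETS site alone, and CCDC87/CCS held none of the 6 kinds of site.

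The start sites of a member lay 194 bp apart in the median, with quartiles of 97 and 353.75 bp, and 572 members (51.3%) had them at most 200 bp apart. In 761 members (68.3%) the principal start sites of both genes formed the pair, and in the others at least 1 start site belonged to another transcript. The peak covered both start sites in 1095 members (98.3%). Member peaks were strong. Their median of the mean normalized count was 712, against 454 at 8408 one-way GC-rich promoters, that is, promoter peaks of at least 50% GC without a divergent pair, and 119 over all peaks. Members held 5.04% of the summed mean counts of all peaks. The highest mean counts belonged to H2BC21/H2AC20, a pair of histone H2B and H2A genes (5344), CLIC1/MSH5, a chloride channel gene beside a meiotic mismatch-repair homologue (5180), and HLA-DMA/BRD2, an antigen-loading gene beside a bromodomain gene (5027). Of these only CLIC1/MSH5 passed the adjusted p threshold, with a log2 fold change of -0.27 (SE 0.061, DESeq2 Wald test, adjusted p = 7.35e-05). H2BC21/H2AC20 had 0.05 (SE 0.062) and HLA-DMA/BRD2 -0.02 (SE 0.062). At CLIC1/MSH5 and HLA-DMA/BRD2 at least 1 start site of the pair was not a principal one. Which of the 2 genes such a peak reports on was not tested.

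H3K27ac at these promoters changed little in size in senescent cells. A peak was called gained or lost when it changed by more than 1.5-fold with an adjusted p under 0.05. Of the members, 11 were gained and 54 were lost. The 5.83% called compare with 22.6% of all peaks, 0.987% gained with 9.47%, and 4.85% lost with 13.1%. Losses made up 83.1% of the calls at members, 78.9% at one-way GC-rich promoters and 58.1% over all peaks. Nevertheless 412 members (37%) had an adjusted p under 0.05 at any fold, against 39.2% of all peaks, and 347 of the 412 lay within 1.5-fold. Small rises were the more frequent of these, 252 against 95 small falls. Small rises also led over all peaks, 4850 against 3700, and at one-way GC-rich promoters, 1551 against 843. How far such small shifts depend on the scaling of the libraries was not tested. The median log2 fold change of the members was 0.05, with quartiles of -0.11 and 0.20 and a median SE of 0.091. Over all peaks the median was 0.01, with quartiles of -0.39 and 0.34. In these bulk samples, a lower mark in every cell and its loss from some of the cells cannot be told apart.

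**Figure D1:**
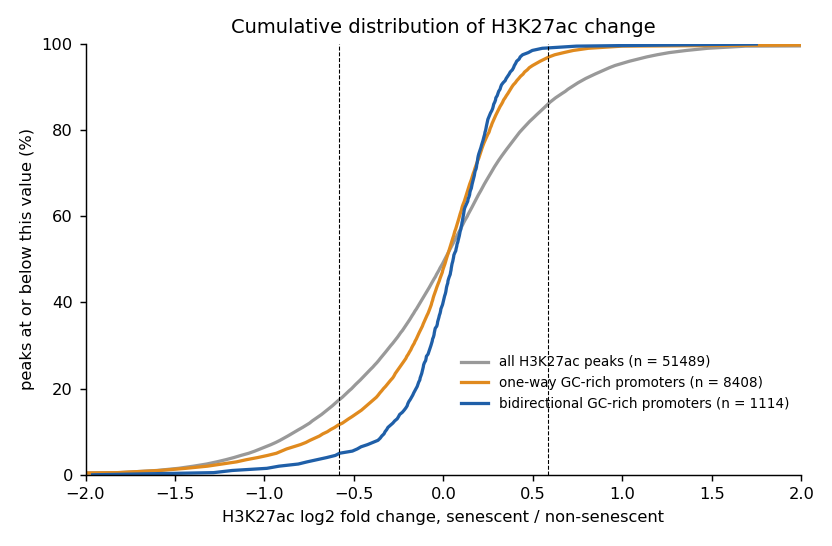
Cumulative share of peaks (vertical axis, percent) at or below each H3K27ac log2 fold change of senescent over non-senescent cells (horizontal axis, shown from -2 to 2) for all 51489 peaks, 8408 one-way GC-rich promoters and 1114 bidirectional GC-rich promoters. Dashed lines mark a fold change of 1.5; the line of the bidirectional promoters is the steepest, with 92.7% of them between -0.5 and 0.5 against 81.3% of the one-way promoters and 62.2% of all peaks.

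One-way GC-rich promoters, whose GC content is close (median 63.2% against 61.7%), had 240 gained and 895 lost, or 13.5% called. Their log2 fold changes had a median of 0.02 and quartiles of -0.24 and 0.21. Members had higher counts, and the share called depended on the count. Among peaks with a mean count over 402, 3.31% of 846 members, 6.13% of 4571 one-way promoters and 13.1% of all peaks were called. Between 119 and 402, 11.2% of 232 members, 16.9% of one-way promoters and 30.4% of all peaks were called. Between 36.3 and 119, 25.8% of 31 members and 35.5% of one-way promoters were called. The members had the lower share in each of these 3 ranges. Of only 5 members below 36.3, 3 were called. No test was made over regions, which are not replicates.

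Among the members themselves the spacing of the start sites went with little difference. The share called was 6.76% where the start sites lay at most 100 bp apart, 7.25% above 100 and up to 200 bp, 4.19% above 200 and up to 400 bp and 5.17% beyond. Spearman's rho between log2 fold change and distance over the 1114 members was 0.0029, and with the mean count it was 0.22. Pairs of principal start sites had 4.47% called, and pairs that needed another transcript 8.78%. The 19 members whose peak did not cover both start sites had 31.6% called, all of them lost. Their median SE of 0.216 was above that of all members.

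**Figure D2:**
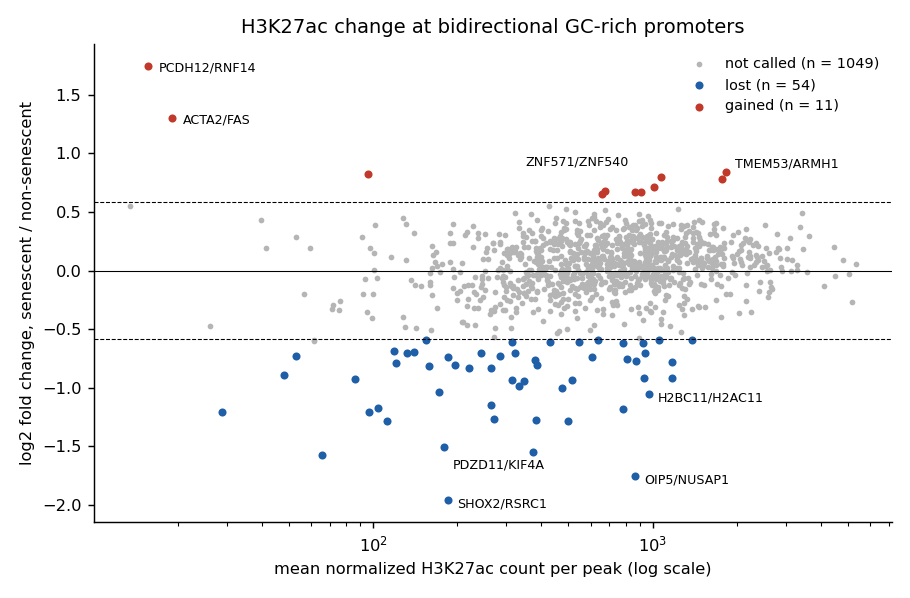
Each point is one of 1114 bidirectional GC-rich promoters, placed by the mean normalized H3K27ac count of its peak (horizontal, log scale) and the log2 fold change of senescent over non-senescent cells (vertical). Dashed lines mark a fold change of 1.5; the 54 lost promoters (blue) reach -1.96, and apart from PCDH12/RNF14 and ACTA2/FAS at counts under 50 the gained ones (red) stay at or below 0.84.

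The largest fall was at SHOX2/RSRC1, where SHOX2 is a homeobox factor and RSRC1 a splicing-related protein, on chromosome 3 from 158104986 to 158107893. It had a mean normalized count of 186, a log2 fold change of -1.96 (SE 0.164, DESeq2 Wald test, adjusted p = 7.73e-31) and in senescent cells 0.257 of the non-senescent level. The smallest adjusted p of any member belonged to OIP5/NUSAP1 on chromosome 15 from 41330713 to 41335119. OIP5 loads the centromeric histone CENP-A and NUSAP1 binds spindle microtubules, so both sides of this promoter serve mitosis. Its log2 fold change was -1.75 (SE 0.087, DESeq2, adjusted p = 1.80e-87) at a mean count of 863, and its level in senescent cells was 0.296 of that in non-senescent cells. PSMB8/PSMB9, which encodes 2 subunits of the immunoproteasome that cuts peptides for antigen presentation, fell by 1.57 on the log2 scale (SE 0.266) at a mean count of 66. PDZD11/KIF4A, where KIF4A is a chromosome-bound kinesin, fell by 1.505 (SE 0.160).

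Several other pairs among the largest losses joined a gene on a cell-cycle list to an unrelated one. CCNE2/NDUFAF6, cyclin E2 beside an assembly factor of respiratory complex I, had a log2 fold change of -1.29 (SE 0.108). TK1/AFMID, thymidine kinase beside a kynurenine-pathway enzyme, had -1.28 (SE 0.235). NAA38/CHD3, an N-terminal acetyltransferase subunit beside a chromatin remodeller, had -1.18 (SE 0.096), with start sites 988 bp apart, and was counted as a cell-cycle pair only through the symbol NAA38 on the E2F target list, which may be an older name of another gene. CCHCR1/TCF19, a centriole protein gene beside a gene of S-phase expression, had -1.21 (SE 0.216). The remaining large losses held no gene on the replication or mitosis lists. SEPTIN12/SMIM22, a germ-cell septin beside a small membrane protein gene, had -1.54 (SE 0.129), and TLCD3B/ENSG00000285043, a TLC-domain gene beside an unnamed one, -1.26 (SE 0.130). PABIR2/PABIR3, a pair of relatives of a PP2A inhibitor, had -1.17 (SE 0.216). FAM72B/SRGAP2C had -1.28 (SE 0.125) and its sequence relative FAM72A/SRGAP2 -0.70 (SE 0.118). These loci are near-identical duplicates, so reads could have been assigned to the wrong copy and their separate values are uncertain. At SHOX2/RSRC1, PSMB8/PSMB9, SEPTIN12/SMIM22, CCNE2/NDUFAF6, TLCD3B/ENSG00000285043, NAA38/CHD3 and PABIR2/PABIR3 at least 1 start site of the pair was not a principal one. The PABIR2/PABIR3 peak did not cover both start sites. Some pairs named below also used a start site that was not principal, among them PRIM1/HSD17B6, ATP5F1A/HAUS1, IFIH1/GCA and ACTA2/FAS.

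Gains were fewer and smaller. TMEM53/ARMH1, where TMEM53 is a nuclear envelope protein, on chromosome 1 from 44670849 to 44676200, had a log2 fold change of 0.84 (SE 0.075, DESeq2 Wald test, adjusted p = 7.08e-27) at a mean count of 1832. CCDC87/CCS, whose CCS gene encodes the copper chaperone of superoxide dismutase, had 0.78 (SE 0.067, DESeq2, adjusted p = 2.77e-29) at a mean count of 1770. FHIP1B/CNGA4, an adaptor of dynein transport beside an ion channel gene, had 0.67 (SE 0.081). TMEM232/SLC25A46, which includes a regulator of mitochondrial shape, had 0.67 (SE 0.084). HRAS/LRRC56, the small GTPase gene HRAS beside a cilium gene, had 0.65 (SE 0.100). Most of these sit close to the limit of 1.5-fold. With a test against a fold change of 1.5 in place of 0, only 1 gain and 17 losses remained, beside 4.64% of all peaks called that way. At FHIP1B/CNGA4, TMEM232/SLC25A46, HRAS/LRRC56 and, below, ZNF569/ZNF570, at least 1 start site of the pair was not a principal one.

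Of the 9 gained members with a mean count of at least 50, 4 carried a zinc finger gene of the ZNF family, most of which are DNA-binding repressors. ZNF597/NAA60 on chromosome 16 had a log2 fold change of 0.83 (SE 0.210), ZNF571/ZNF540 0.80 (SE 0.082), ZNF490/ZNF791 0.71 (SE 0.086) and ZNF569/ZNF570 0.68 (SE 0.098). The last 3 lie on chromosome 19 in clusters of such genes. This group was formed after the values were seen. All 53 members at ZNF, ZSCAN, ZKSCAN or ZFP genes had a median of 0.20 on the log2 scale, against 0.05 over all members. Beside 59.7% of all members, 41 of these 53 (77.4%) were above 0. All 18 of them on chromosome 19 were above 0, from 0.02 to 0.80, with a median of 0.28, and 61 of all 82 members on that chromosome were above 0. Across the 53, 19 rose and 3 fell at an adjusted p under 0.05 of any fold. At 391 one-way promoters of such genes the median was 0.13, with 71.4% above 0, 24 gained and 15 lost.

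**Figure D3:**
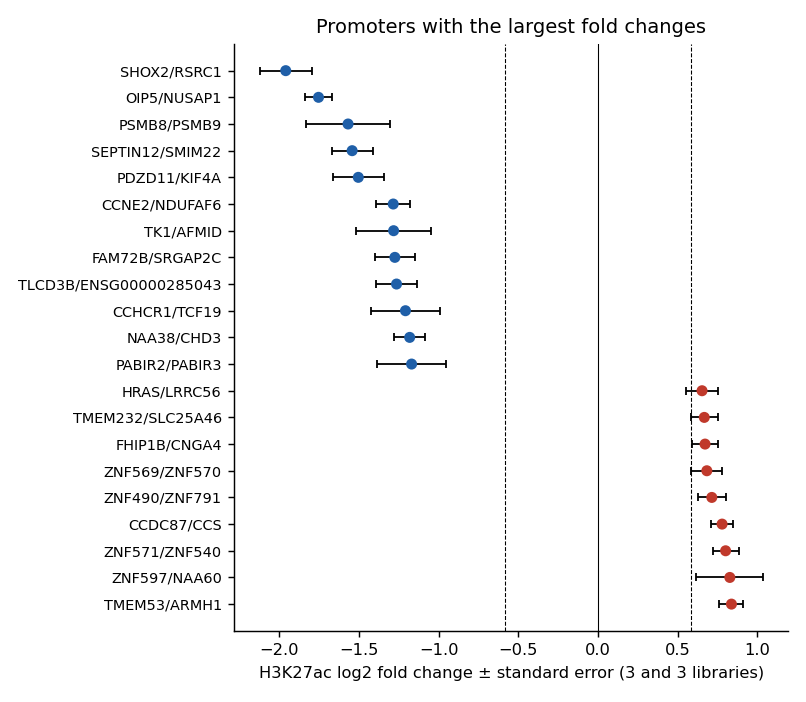
H3K27ac log2 fold change of senescent over non-senescent cells (horizontal axis) with its standard error from 3 and 3 libraries (bars) at the 12 lost (blue) and 9 gained (red) bidirectional promoters with the largest changes at a mean normalized count of at least 50. Dashed lines mark a fold change of 1.5. Losses run from -1.96 to -1.17 and gains from 0.65 to 0.84. Among the gains, the bars of HRAS/LRRC56 and TMEM232/SLC25A46 reach the limit.

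The members were next described by the function of their genes. A peak counted for a list when either gene of a qualifying pair was on it. Of 26 members at genes of mitosis, the kinetochore and cohesin, 10 were lost and none gained, with a median log2 fold change of -0.35. At an unadjusted p under 0.05, 0 of the 26 were higher and 17 lower. SKA2/PRR11, where SKA2 couples kinetochores to microtubules, had -0.92 (SE 0.083). FOXM1/RHNO1, with the transcription factor of late cell-cycle genes, was lost at -0.62 (SE 0.079). AURKA/CSTF1, the promoter of the Aurora A kinase, fell by 0.36 on the log2 scale, within 1.5-fold (SE 0.075, DESeq2, adjusted p = 9.60e-06). IDE/KIF11, with a kinesin required for the spindle, had 0.02 (SE 0.104), and SMC1A/RIBC1, with a cohesin subunit, -0.10 (SE 0.100), and both missed the threshold.

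Among 26 members at DNA replication genes, 5 were lost and none gained, with a median of -0.20. These were TK1/AFMID, TPRA1/MCM2 at -0.93 (SE 0.097), PRIM1/HSD17B6 at -0.93 (SE 0.130), POLE/PXMP2 at -0.83 (SE 0.137) and PRKDC/MCM4 at -0.59 (SE 0.097). MCM2 and MCM4 belong to the replicative helicase, PRIM1 is a primase subunit and POLE is the leading-strand polymerase. PCNA/CDS2, the promoter of the polymerase clamp, went the other way, with 0.40 (SE 0.070, DESeq2, adjusted p = 1.48e-07), which lies within 1.5-fold. Of 31 members at DNA repair genes 2 were lost, ZAR1L/BRCA2 at -0.74 (SE 0.095) and PRKDC/MCM4, and the list had a median of -0.13. TP53BP1/MAP1A, with a repair factor of double-strand breaks, had 0.52 (SE 0.075). Each of these 3 lists lay below the median of all members.

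The 7 histone pairs split. H2BC11/H2AC11 fell by 1.06 on the log2 scale (SE 0.084) and H2AC17/H2BC17 by 0.92 (SE 0.083), both at mean counts near or above those of most members (967 and 1170). H2BC12/H2AC12 had -0.34 (SE 0.078). The other 4 lay between 0.00 and 0.15, and none of them passed the adjusted p threshold. H2AC and H2BC genes resemble each other closely in their coding parts, so some reads could have been assigned to a relative.

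**Figure D4:**
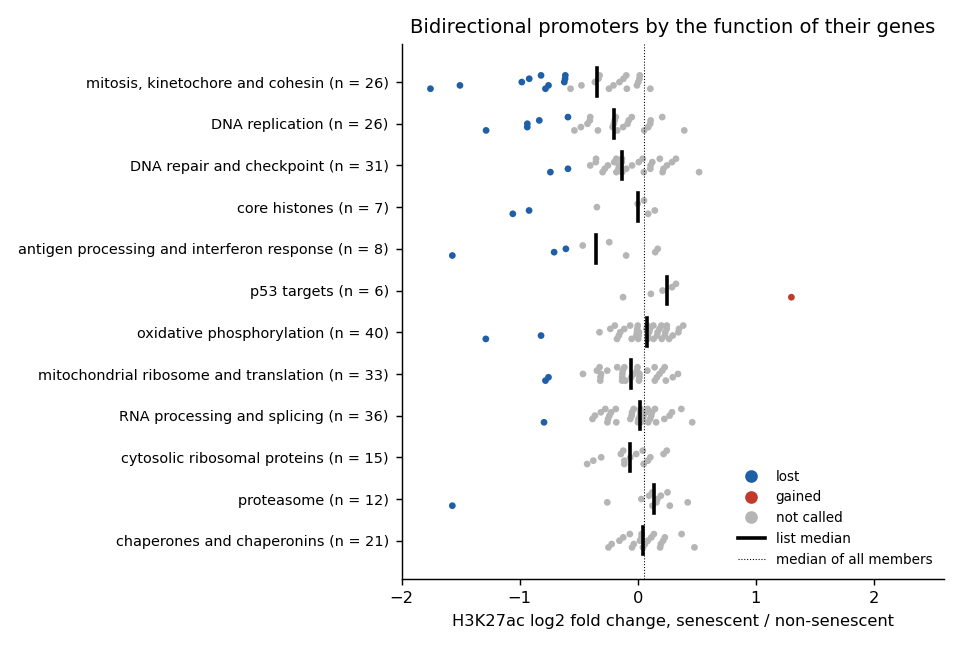
H3K27ac log2 fold change (horizontal axis) of the members at the genes of 12 lists, with lost promoters in blue, gained in red and the rest in grey. Thick bars are list medians and the dotted line is the median of all 1114 members (0.05). The mitosis list has 10 of 26 lost and a median of -0.35. The chaperone and cytosolic ribosomal protein lists, with 21 and 15 members, have no called promoter, beside 5.83% called over all members.

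The signatures used by the study, the Hallmark E2F target and p53 pathway sets among them, overlap these lists. Of 57 members at genes of the cell cycle or E2F target signatures, 13 were lost and none gained, with a median log2 fold change of -0.16. At an unadjusted p under 0.05, 3 of the 57 were higher and 28 lower. Without NAA38/CHD3 12 of 56 were lost. Adding the replication, repair, mitosis and histone lists gave 113 members, of which 21 (18.6%) were lost, or 20 of 112 without NAA38/CHD3. Among the other 1001 members 33 were lost and 11 gained, 4.4% in all, and the median was 0.08. Members at genes of these lists thus accounted for 38.9% of the lost members (37% without NAA38/CHD3) and 10.1% of all members. In 17 of these 21 lost members only 1 gene of the pair was on the lists, as at MRPL51/NCAPD2, a mitochondrial ribosome gene beside a condensin gene, with -0.75 (SE 0.090). The lists did not hold every gene tied to the cell cycle, so these shares apply to the listed genes only. SMC1B/RIBC2 at -1.14 (SE 0.133) and PMEL/CDK2 at -0.69 (SE 0.183) were counted among the 33 other lost members. So was MZT1/BORA (DESeq2 Wald test, adjusted p = 1.85e-18). The PMEL/CDK2 peak did not cover both start sites.

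The mitosis, replication and cell cycle or E2F target lists had lower medians at one-way GC-rich promoters. Of 80 one-way promoters at mitosis genes 52 were lost, with a median log2 fold change of -0.89, against 10 of 26 and -0.35 at members. At DNA replication genes the counts were 20 of 40 with a median of -0.58, against 5 of 26 and -0.20. At cell cycle or E2F target genes they were 73 of 159 with a median of -0.52, against 13 of 57 and -0.16. The members had the higher mean counts on these 3 lists, with medians of 849 against 325 at mitosis genes, 645 against 345 at replication genes and 697 against 461 at cell cycle or E2F target genes. The part of count and of a second promoter in this difference was not tested. At DNA repair genes 12 of 45 one-way promoters were lost against 2 of 31 members, and both kinds had a median of -0.13. At core histone genes 2 of 15 one-way promoters were lost with a median of -0.30, against 2 of 7 members and 0.00.

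Members of housekeeping lists stayed near the middle. Among 40 members at genes of oxidative phosphorylation 2 were lost, CCNE2/NDUFAF6 and ATP5F1A/HAUS1, and the median log2 fold change was 0.08. ATP5F1A encodes a subunit of the ATP synthase, and its partner HAUS1 a subunit of the spindle augmin complex; that pair had -0.82 (SE 0.180). Among 33 members at genes of mitochondrial translation 2 were lost, MRPL51/NCAPD2 with its condensin gene among them. None of 15 members at cytosolic ribosomal protein genes and none of 21 at chaperone genes was called. With 5.83% of all members called, lists this short are too small to show a lower share. At an unadjusted p under 0.05, 2 ribosomal protein promoters were higher and 3 lower, and 5 chaperone promoters were higher and 2 lower. THAP5/DNAJB9, with a chaperone cofactor of the endoplasmic reticulum, had 0.19 (SE 0.061), and RPL35/ARPC5L had -0.37 (SE 0.090). Of 36 members at RNA processing genes 1 was lost, and SF3B6/FAM228B, with a subunit of the splicing factor SF3B, had 0.46 (SE 0.078). Of 12 proteasome members only PSMB8/PSMB9 was lost, and SPIRE1/PSMG2, with a proteasome assembly chaperone, had 0.42 (SE 0.097).

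Few members lay at immune genes, and those called were lost. Of 8 members at genes of antigen processing and the interferon response 3 were lost and none gained, with a median of -0.35. Besides PSMB8/PSMB9 these were PARP9/DTX3L, partners in interferon signalling and DNA damage, at -0.71 (SE 0.132), and IFIH1/GCA, where IFIH1 (MDA5) senses double-stranded RNA, at -0.61 (SE 0.110). PATL2/B2M, with the light chain of class I antigen-presenting molecules, had -0.24 (SE 0.071). None of the 8 was higher at an unadjusted p under 0.05. At 39 one-way promoters of this list 1 was gained and 8 lost, with a median of -0.06. The study's interferon signature touched 22 members, with 4 lost and a median of -0.02, the fourth being CHDH/IL17RB at -0.59 (SE 0.076). At an unadjusted p under 0.05, 2 of the 22 were higher and 5 lower. At 160 one-way promoters of that signature 7 were gained and 23 lost, with a median of -0.10.

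Most promoters of p53 pathway genes had values above 0. Of 6 members at p53 target genes ACTA2/FAS was gained, with the death receptor gene FAS, but its mean count was only 19.2 (log2 fold change 1.30, SE 0.481). XPO5/POLH, with a translesion polymerase, had 0.33 (SE 0.109) and XPC/LSM3, with a sensor of DNA damage, 0.29 (SE 0.083). The list median was 0.25, from 6 members. The study's p53 signature touched 25 members, 2 gained (ACTA2/FAS and HRAS/LRRC56) and none lost, with a median of 0.18. Of the 25, 21 were above 0, beside 59.7% of all members. At an unadjusted p under 0.05, 12 of the 25 were higher and none lower. At 110 one-way promoters of that signature the median was 0.10, with 9 gained and 4 lost. ACTA2/FAS was also the only called one of 4 members at genes of the study's secretory signature.

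Few beta-cell genes lay at members, whose rule leaves out peaks of 10000 bp or more and peaks in the enhancer lists. Of the 68 genes on the beta-cell function list 2 lay at members, which held 2261 distinct genes in all. Neither was called, and both had positive values, up to 0.24 (SE 0.133) at TMEM205/CCDC159. The beta-cell maturity signature also had 2 members, GLT8D1/SPCS1 at 0.19 (SE 0.071) and IMMP1L/ELP4 at 0.18 (SE 0.071). The insulin secretion signature had 12, with none called and a median of 0.05. As 5.83% of all members were called, 2 or 12 members are too few to show a lower share. At an unadjusted p under 0.05, 2 of the 12 were higher, among them BAD/GPR137 at 0.37 (SE 0.083), and ILDR2/MAEL was lower at -0.50 (SE 0.160). No member lay at a collagen or laminin gene.

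The motif letters at lost members were those of cell-cycle promoters more often than at uncalled members. These shares are counts over regions, with no test. Windows of 500 bp, around the middle of the interval for members and around the start site for one-way promoters, were searched on both strands for the letters given above and for AAGATGGCG, read by YY1, and ACTACAATT, read by ZNF143. SP and KLF factors were represented by their GC box, GGGCGG. Core promoter elements were represented by the TATA box with the letters TATAAA. The E-box, which MYC and related factors read, was searched as CACGTG. Hits of different motifs can overlap and were counted separately. E2F letters were in 11 of 54 lost members (20.4%), 10.9% of the 1049 uncalled members and 7.53% of one-way promoters. The CHR was in 14 lost members (25.9%), 12.3% of uncalled members and 9.97% of one-way promoters. CCAAT boxes were in 32 lost members (59.3%), 47.5% of uncalled members and 39.5% of one-way promoters. Conversely, ETS letters were in 3 lost members (5.56%) and 17.6% of uncalled ones, NRF1 letters in 1 (1.85%) and 8.39%, and YY1 letters in 1 (1.85%) and 7.24%. Members as a whole held ETS letters in 17% of windows, against 8.53% of one-way promoters. SP/KLF letters were common throughout, in 90.7% of lost and 85.7% of uncalled members.

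Read the other way, 10 of the 80 members with both a CHR and a CCAAT box were lost (12.5%), against 4.26% of the remaining members. Of the 189 members with ETS letters 3 were lost (1.59%), against 5.51% of those without, and 1 of 89 with NRF1 letters (1.12%) against 5.17%. At one-way promoters 2.35% of 895 lost ones held ETS letters, against 8.53% of all. For E2F letters these 2 shares were 11.6% and 7.53%, and for the CHR 17.3% and 9.97%. For CCAAT boxes they were nearly equal, 40.2% and 39.5%. Among members at cell-cycle genes alone the contrast in E2F letters was small, with 33.3% of 21 lost and 26.1% of 92 uncalled members, and CCAAT boxes were in 66.7% and 67.4%. TATA boxes were in 5 of these 21 lost members (23.8%) and 7.61% of the 92, and NRF1 letters in 0 and 9.78%. A hit is a match of letters and not a bound site.

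**Figure D5:**
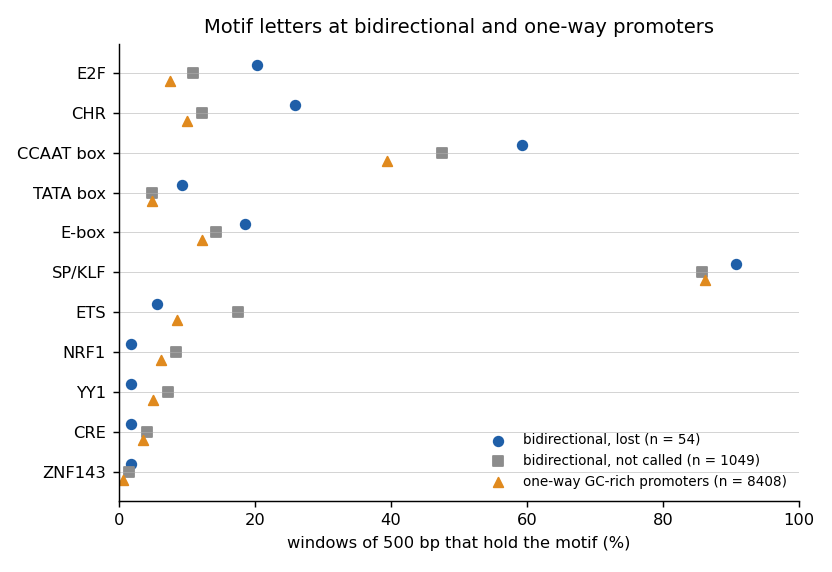
Share of 500 bp windows (horizontal axis, percent) that hold each of 11 motifs on either strand, for 54 lost members (circles), 1049 uncalled members (squares) and 8408 one-way GC-rich promoters (triangles). E2F, CHR and CCAAT letters are more frequent in the lost members (20.4%, 25.9% and 59.3%), and ETS letters are most frequent in uncalled members (17.6% against 5.56% in lost ones).

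CTCF, the zinc finger protein that anchors chromatin loops, lay in 547 of the 1114 members (49.1%), in 55% of one-way GC-rich promoters and in 26.9% of all H3K27ac peaks. The median widths of these peaks were 3116.5, 2644.5 and 1742 bp, and the part of width in these shares was not tested. A CTCF peak was called when it changed by more than 1.5-fold with an adjusted p under 0.2. Members held 631 CTCF peaks, of which 486 had an adjusted p, and 4 of these were gained and 23 lost. The 5.56% called compare with 7.27% of all CTCF peaks, 0.823% gained with 2.99%, and 4.73% lost with 4.28%. Of the CTCF peaks in one-way GC-rich promoters 4.61% were called, 0.338% gained and 4.28% lost, and of those in all H3K27ac peaks 5.08% were called. The median CTCF log2 fold change in members was -0.18, with 72.4% of values below 0. It was -0.19 at one-way promoters. CTCF change fell with GC content over all CTCF peaks (Spearman's rho -0.34). After the median of each GC decile was subtracted, the median in members was -0.02 and 6 peaks were lost in place of 23, with 4 still gained.

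The CTCF peaks with the smallest adjusted p among the lost ones were at CHDH/IL17RB, with a log2 fold change of -0.90 (SE 0.226), TRAPPC6A/BLOC1S3, with trafficking genes, at -0.79 (SE 0.226), and MRPL51/NCAPD2 at -1.07 (SE 0.307). LMF2/NCAPH2, with a condensin subunit, had -0.91 (SE 0.264) and BAP1/PHF7, with a deubiquitinase of histone H2A, -0.85 (SE 0.270). The gained ones were at THAP10/LRRC49, with 0.87 (SE 0.262), M6PR/KLRG1, with the mannose 6-phosphate receptor, 0.84 (SE 0.271), TRMT112/PRDX5, with an antioxidant peroxiredoxin, 0.59 (SE 0.20), and THAP8/WDR62, with a centrosome protein, 0.77 (SE 0.275). Of these 9 pairs CHDH/IL17RB and MRPL51/NCAPD2 had also lost H3K27ac, at -0.59 (SE 0.076) and -0.75 (SE 0.090). LMF2/NCAPH2 had -0.48 (SE 0.081), within 1.5-fold. TRAPPC6A/BLOC1S3, BAP1/PHF7 and all 4 pairs with a gained CTCF peak had H3K27ac between -0.14 and 0.18.

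The changes of H3K27ac and CTCF had little relation across the members. At lost members there were 32 CTCF peaks, with a median log2 fold change of -0.33, 24 of them below 0, 3 called lost and none gained. At OIP5/NUSAP1, the lost promoter with the smallest adjusted p, CTCF had 0.22 (SE 0.123) and was not called. Spearman's rho between the H3K27ac and CTCF changes over the 631 member peaks was 0.10, and pairs in one peak share their H3K27ac value. Of 547 members with a CTCF peak 28 were lost, and of 567 without one 26, and the median H3K27ac log2 fold change was 0.05 and 0.06.

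Rb, the pocket protein that represses E2F targets and is freed when large T is removed, had 2435 regions listed as specific to senescent cells. Of the members 18 (1.62%) overlapped one, against 2.31% of one-way GC-rich promoters and 0.691% of all peaks. None of the 18 was called for H3K27ac, beside 5.83% of all members. By DESeq2 at an adjusted p under 0.05 of any fold 6 of them were higher and 1 lower, and 8 had an unadjusted p under 0.05. Their log2 fold changes ran from -0.38 at COG4/SF3B3, with a Golgi tether and a splicing factor, to 0.38 at COA5/UNC50, with a cytochrome oxidase assembly factor. Only 2 of the 18, NSL1/TATDN3 and SMC1A/RIBC1, had a gene on the cell-cycle lists, and neither passed the H3K27ac threshold, with -0.15 (SE 0.073) and -0.10 (SE 0.100). The 21 lost promoters of the cell-cycle lists, OIP5/NUSAP1 among them, thus held no listed Rb region. With only 1.62% of all members on such a region, its absence from so few promoters is not informative. The region list gives positions without values per library, so no floor can be set for weaker binding.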

How the data were processed

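Per the labels and the study's methods, ChIP-seq reads were trimmed, aligned to hg38 with Bowtie2 and filtered with SAMtools, H3K27ac peaks were called with HOMER against inputs, and CTCF and Rb peaks with MACS2. The methods describe a filter of CTCF peaks for the CTCF motif; whether the CTCF table is limited to such peaks was not tested. The authors compared raw counts per peak with DESeq2, 3 senescent against 3 non-senescent libraries, and deposited tables with the mean normalized count (signal), the log2 fold change with its SE, the Wald score, and p-values before and after Benjamini-Hochberg adjustment. Tool versions are not given in the sources used here. Of 51457 CTCF peaks, 11972 have no adjusted p. No table holds values per library, so the planned count test could not be run, and the thresholds were applied to these deposited columns. Depth per library is unknown.

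Peaks were joined to GENCODE 44 start sites and hg38 with pysam 0.24.0, pandas 2.3.3 and scipy 1.17.1. All 24 chromosome names matched and no peak passed a chromosome end. Overlap means at least 1 bp. The steps were tested on simulated data. Members and lists were chosen with earlier results of these data known. Named are up to 12 lost and 12 gained members of largest change with a mean count of at least 50, which gave 12 and 9, up to 4 per list by absolute Wald score, the 3 highest means, called members with an Rb region, of which there were 0, and up to 5 per direction with a called CTCF peak. FAM72A/SRGAP2, FOXM1/RHNO1, IDE/KIF11, SMC1A/RIBC1, NSL1/TATDN3, COA5/UNC50, PMEL/CDK2 and MZT1/BORA were among those named after their values were seen. Some list members that this rule names are not reported here.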

Additional observations from a re-analysis of the deposited data

How the results depend on the processing

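No paired analysis was possible because the tables hold no values per library, and for the same reason no library could be left out in turn. Gained members numbered 11 and lost members 54. A fold change above 2 left 2 gained and 17 lost, and a test against a fold change of 1.5 left 1 gained and 17 lost. Principal start sites only gave 5 gained and 29 lost, and at least 60% GC gave 4 gained and 28 lost, both by taking fewer members. The 13 lost members at cell cycle or E2F target genes became 5 at a fold above 2 and 4 by the test against 1.5-fold, and 12 without NAA38/CHD3, an alternative chosen after seeing the data. CTCF calls in members fell from 4 gained and 23 lost to 1 and 5 at an adjusted p under 0.05, and to 6 lost after GC centring. The 49.1% of members with a CTCF peak became 28.3% with CTCF centres within 500 bp of the peak centre and 27.8% with CTCF mean counts of at least 50. In windows of 300 bp, by their smaller size, motif shares in members were 7.81% for E2F, 8.26% for CHR, 39.5% for CCAAT, 14.5% for ETS, 6.46% for NRF1, 74.5% for SP/KLF, 4.13% for YY1, 3.32% for TATA and 10.4% for E-box. The remaining counts stayed within 1.5 times, and the median H3K27ac change lay between 0.04 and 0.06 in 6 alternatives. No called member changed direction; GC centring ended 2 of the 65 calls and an adjusted p under 0.01 ended 3. Gains at PCDH12/RNF14 (mean count 15.6) and ACTA2/FAS and losses at FMNL3/TMBIM6 (28.9) and PAQR9/U2SURP (48.1) rest on counts under 50. How much of the lower share called at members comes from their higher counts was not tested.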
